A study of Mus musculus with 20 samples.

Results

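The genes described here are 8 epidermal cell junction genes, chosen by symbol from the 22090 genes of the count table: the gap junction genes Gjb2, Gjb6, Gjb5 and Gja1, and the tight junction genes Cldn1, Cldn4, Cldn7 and Ocln. All 8 symbols were found. Their RNA was measured by bulk RNA-seq in 20 pieces of back skin from female SKH-1 mice, a hairless strain, obtained at an age of 7 months and sampled after the period of irradiation. The groups were 8 normal skin (NS), 8 actinic keratosis (AK, a precancerous lesion) and 4 cutaneous squamous cell carcinoma (cSCC) samples. Of 8 mice, 4 were left without ultraviolet radiation and gave 1 NS each, and 4 were irradiated with simulated solar UVA and UVB and gave 1 NS, 2 AK and 1 cSCC each. The NS of both kinds of mice are not told apart by the labels, nor are the AK grades, and the mouse of each sample is not given, so samples were treated as unpaired. The p-values take no account of samples that share a mouse.

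Gap junctions are channels that join the cytoplasm of neighbouring cells and let ions and small metabolites pass, and each is built from connexins, the proteins of the Gjb and Gja genes. Tight junctions seal the space between cells of the granular layer, with claudins and occludin spanning the membrane and scaffold proteins such as cingulin beneath them. In skin, Gja1 is the connexin of the lower living layers, Gjb2 is low in resting epidermis and rises in wounded and hyperproliferative epidermis, and mice without Cldn1 die after birth from loss of water through the skin.

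The 250 bases before the RefSeq start are shown for 4 of the genes (GRCm38.p6, minus strand, 5′ to 3′): Gjb2 and Gjb6, whose levels varied together, and Gjb5 and Cldn1, which were lower in every cSCC than in every NS. The windows lie at chr14:57104703-57104952 (Gjb2), chr14:57133612-57133861 (Gjb6), chr4:127358165-127358414 (Gjb5) and chr16:26371840-26372089 (Cldn1). Capitals mark the motifs found on either strand. The motifs searched were an AP-1 site (TGACTCA, any base allowed in the middle), a GC box (GGGCGG) and a TATA box (TATAAA). A grainyhead site (AACCNGTT, N standing for any base) and the CCAAT box, spelled by its name, were searched too.
Gjb2: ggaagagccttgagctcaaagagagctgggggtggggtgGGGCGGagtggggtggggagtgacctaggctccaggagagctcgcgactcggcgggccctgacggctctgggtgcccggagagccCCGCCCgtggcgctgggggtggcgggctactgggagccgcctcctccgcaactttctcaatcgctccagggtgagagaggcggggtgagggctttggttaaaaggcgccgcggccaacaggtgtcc
Gjb6: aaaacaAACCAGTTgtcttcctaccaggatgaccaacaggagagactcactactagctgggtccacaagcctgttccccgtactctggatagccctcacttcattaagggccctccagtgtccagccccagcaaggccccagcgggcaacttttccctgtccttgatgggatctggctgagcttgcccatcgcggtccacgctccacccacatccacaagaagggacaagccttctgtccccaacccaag
Gjb5: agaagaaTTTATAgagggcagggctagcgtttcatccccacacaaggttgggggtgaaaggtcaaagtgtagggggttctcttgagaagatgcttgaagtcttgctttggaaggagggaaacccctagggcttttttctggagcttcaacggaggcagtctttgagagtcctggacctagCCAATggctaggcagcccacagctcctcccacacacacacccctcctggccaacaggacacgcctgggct
Cldn1: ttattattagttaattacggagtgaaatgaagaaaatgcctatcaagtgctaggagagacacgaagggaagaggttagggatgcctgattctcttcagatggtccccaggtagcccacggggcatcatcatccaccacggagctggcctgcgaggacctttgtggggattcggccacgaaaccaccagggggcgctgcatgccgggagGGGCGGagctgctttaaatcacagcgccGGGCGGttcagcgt
Gjb2 and Cldn1 each hold 2 GC boxes, a motif in 32.7% of the 32851 mouse promoter windows of this length. Gjb6 holds the grainyhead site, found in 1.79% of windows. Gjb5 holds the TATA box letters (12.4% of windows) and a CCAAT box (33.8%). Its TATA box letters lie on the opposite strand, at -243 to -238 from the start. None of these 4 windows has the AP-1 letters, which are in 6.75% of windows. Among the members not shown, Gja1 and Cldn4 do have them. Gjb2 and Gjb6 lie 18600 bases apart on chromosome 14, with the coding gene Gm4491 between them, and their windows share none of the 5 motifs. All 8 genes matched a RefSeq promoter, and the matches describe letters only.

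Total counts per sample were 1624325 to 6295575 in NS, 867219 to 14055206 in AK and 775750 to 7095102 in cSCC, so that 3 counts, the least taken as detected, equal between 0.225 and 3.78 CPM (a gene's counts relative to the library total, after TMM scaling). This floor covers counting error only. All 12 keratinocyte genes of a reference list had counts above 0 in the 4 cSCC, at 6451 to 24757 summed CPM against 10945 to 25513 in NS. In the cSCC, 3 libraries stood apart. The library labelled cSCC 21 held 61349 summed CPM of 10 heart genes, where the other cSCC reached 172 and NS 46.3. The library labelled cSCC 20 held 36278 summed CPM of 11 lung genes against at most 61.8 in any other sample. In cSCC 18 the 4 haemoglobin genes reached 920531 CPM against at most 155104 elsewhere. The TMM factor of cSCC 18 was 0.509, against 0.852 to 1.22 elsewhere. This raises all its CPM values, which are therefore not shares of the library. The keratinocyte sums of cSCC 20 and 21, 7782 and 6451 CPM, were below every NS. Their part in the results was not tested, and values without them are given where a call or a direction changed, or a called value moved by over 1.5-fold. In bulk tissue, fewer cells of a type and less RNA per cell cannot be told apart.

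**Figure D1:**
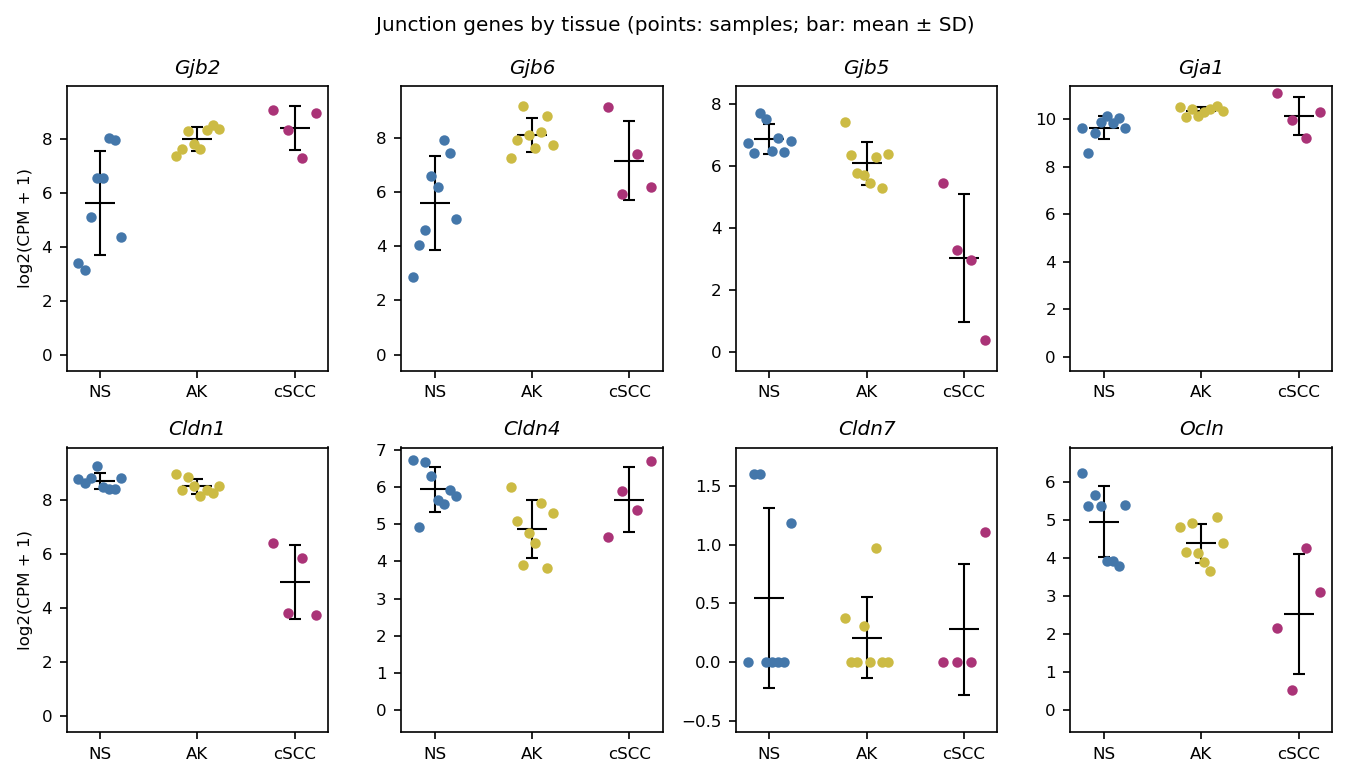
Levels of the 8 junction genes as log2(CPM + 1) (y axis, own scale per gene) in NS (n = 8), AK (n = 8) and cSCC (n = 4), each point 1 sample and the bars the mean ± SD. The 4 cSCC lie below all NS for Cldn1 and Gjb5, Gjb2 and Gjb6 spread widest in NS, and Cldn7 is near 0 throughout.

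A gene was called when edgeR's quasi-likelihood test gave a Benjamini-Hochberg adjusted p under 0.05 over all genes tested and the fold change was above 1.5 or below 0.67. Of the 8 members, 7 passed the filter on low counts in each comparison, and Cldn7 did not. In the cSCC comparisons Gjb5 and Ocln passed it only through the NS or AK, since 3 and 2 of the 4 cSCC reached the level it asks for (3.10 CPM vs. NS and 2.59 vs. AK), so that the counts over the tested members are descriptions. In AK vs. NS, 1 of the 7 was called higher (Gja1) and 0 lower, where 4.64% of the 11677 genes tested were called, 2.26% higher and 2.38% lower. By an unadjusted p under 0.05, for which no share over all genes was taken, 3 were higher and 3 lower. DESeq2 called 2 higher and 1 lower, where it called 433 of the 11677 genes higher and 616 lower. By voom 3 were higher and 2 lower, where 521 and 522 of all genes were. For 0 of the 7 did the groups not overlap, against 0.394% of genes with every AK above every NS and 0.128% with every AK below. In cSCC vs. NS, 3 were called lower (Cldn1, Gjb5 and Ocln) and 0 higher, where 19.3% of 12097 genes were called and 7.65% were called lower, 11.7% higher. By an unadjusted p under 0.05, 1 was higher (Gjb2), DESeq2 called 1 higher and voom 0, rules to which these shares do not apply. In cSCC vs. AK, 2 were called lower (Cldn1 and Gjb5) and 0 higher, where 24.4% of 12032 genes were called and 8.34% were called lower, with 1931 genes called higher. By an unadjusted p under 0.05, 1 was higher (Cldn4), and DESeq2 and voom called 0 higher, again by rules other than that of the shares. For no member did every cSCC lie above every NS (2.70% of genes) or every AK (3.33%). The median log2 fold change of the 7 members was -0.21, -0.11 and -0.41 in the 3 comparisons, against -0.04, 0.14 and 0.17 over all genes tested. The comparisons share samples, so they are not independent of each other.

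**Figure D2:**
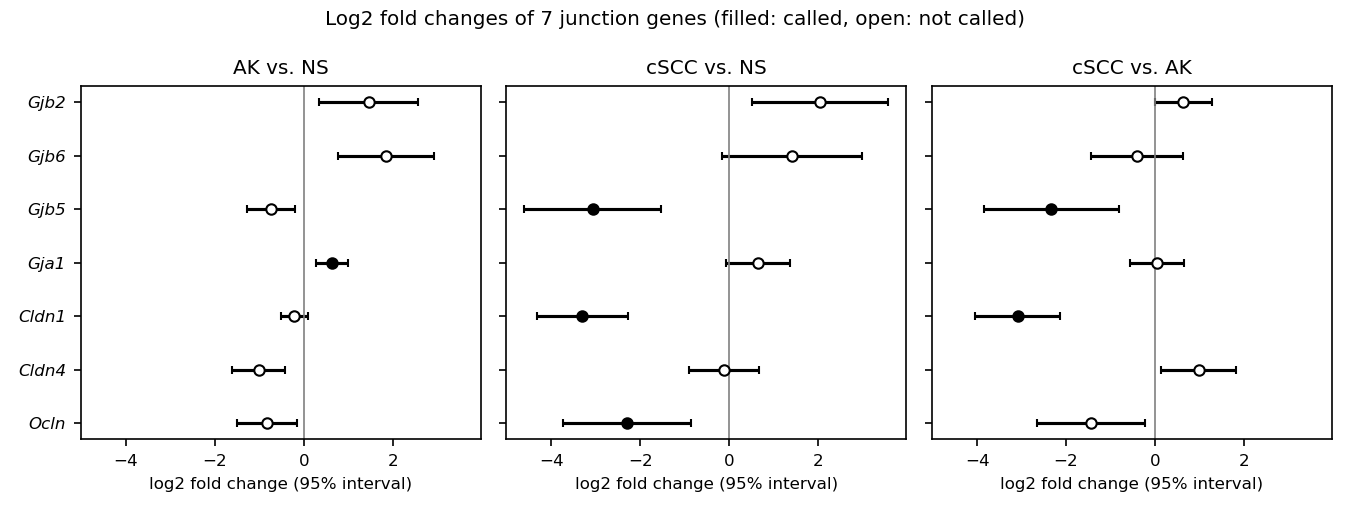
Log2 fold change (x axis, bars the nominal 95% interval) of the 7 tested members, 1 panel per pair of groups, with filled points for called genes. Cldn1 and Gjb5 are filled and negative in both cSCC comparisons, Ocln in cSCC vs. NS, and Gja1 is filled and positive in AK vs. NS.

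Gjb2 and Gjb6 encode gap junction proteins that are known from inherited deafness and skin disease. Gjb2 ranged from 7.82 to 263 CPM in NS (median 63.6, mean 96.4 ± 104 SD, n = 8), a 33.6-fold spread, and from 166 to 367 in AK (median 272, mean 267 ± 77.6 SD, n = 8). The 4 cSCC had 545, 323, 157 and 505 CPM (cSCC 18, 19, 20 and 21). All 8 AK and all 4 cSCC were above the NS median, but 4 AK lay above the highest NS and 4 did not, so the groups overlapped. The log2 fold change was 1.47 (SE 0.57) in AK vs. NS, 2.04 (SE 0.78) in cSCC vs. NS and 0.64 (SE 0.33) in cSCC vs. AK, and none was called (edgeR adjusted p = 0.122, 0.0814 and 0.165). The 95% interval in AK vs. NS, 0.35 to 2.58, leaves a wide range of differences. Gjb2 passed in cSCC vs. NS without NS 7 (2.46, adjusted p = 0.0479) and in cSCC vs. AK without cSCC 20 (0.90, adjusted p = 0.0416).

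Gjb6 ranged from 6.34 to 239 CPM in NS (median 51.3, mean 81.9 ± 84.0 SD, n = 8) and from 150 to 566 in AK (median 256, mean 297 ± 140 SD, n = 8). The cSCC had 556, 59.3, 166 and 71.0 CPM, of which 2 were below every AK and 1 was above every NS. Its log2 fold change was 1.85 (SE 0.55) in AK vs. NS, 1.42 (SE 0.81) in cSCC vs. NS and -0.41 (SE 0.53) in cSCC vs. AK, and none was called (edgeR, adjusted p = 0.055, 0.231 and 0.607). Without cSCC 18, the highest cSCC and the one rich in haemoglobin RNA, Gjb6 was called lower in cSCC vs. AK (-1.55, adjusted p = 0.0222) and its log2 fold change vs. NS was 0.31 (adjusted p = 0.822). In AK vs. NS it passed without NS 7, NS 8 or AK 10 (adjusted p = 0.0237, 0.0341 and 0.0476). Within a library, the log2 ratio of Gjb6 to Gjb2 counts was -0.07 ± 0.59 (SD) in NS and 0.08 ± 0.44 in AK, so the genes stood nearly level with each other there. In cSCC it was 0.03, -2.44, 0.08 and -2.83, with cSCC 19 and 21 far below the rest.

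Over the 16 NS and AK samples, after the group means were subtracted, log2(CPM + 1) of Gjb2 and Gjb6 had Pearson r = 0.93 and Spearman rho = 0.91, with permutation adjusted p = 0.00252 and 0.00728 over 28 member pairs. Without the 2 samples farthest from the median, r was 0.92, and it was 0.96 within NS and 0.72 within AK. The only other pair that passed was Gjb5 and Cldn4, with r = 0.79 and rho = 0.76 (permutation adjusted p = 0.0084 and 0.0294), r = 0.73 without the 2 farthest samples, 0.65 within NS and 0.88 within AK. Of the 28 pairs, 2 passed by either measure. The permutations treat the samples of a group as interchangeable. By design, however, NS came from irradiated and unirradiated mice and AK were of different grades, and the labels do not tell these apart. Any difference between them stays in r, here and for the most similar genes, so the permutation p-values are descriptions. The stress keratins Krt6a, Krt6b, Krt16 and Krt17, which mark wounded and hyperproliferative epidermis, summed to 1996 to 14979 CPM in NS, 7584 to 13021 in AK and 5316 to 15838 in cSCC, and their part in the Gjb2 and Gjb6 levels was not tested. Among 8597 genes, those most like Gjb2 were Rbp2, a retinol-binding protein gene (r = 0.96), and the stress keratin genes Krt6b (0.96) and Krt16 (0.95). Those most like Gjb6 were the cornified envelope genes Rptn (0.95) and Sprr2i (0.95), whose reads may be shared with near-identical Sprr2 genes, and Rbp2 (0.95).

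**Figure D3:**
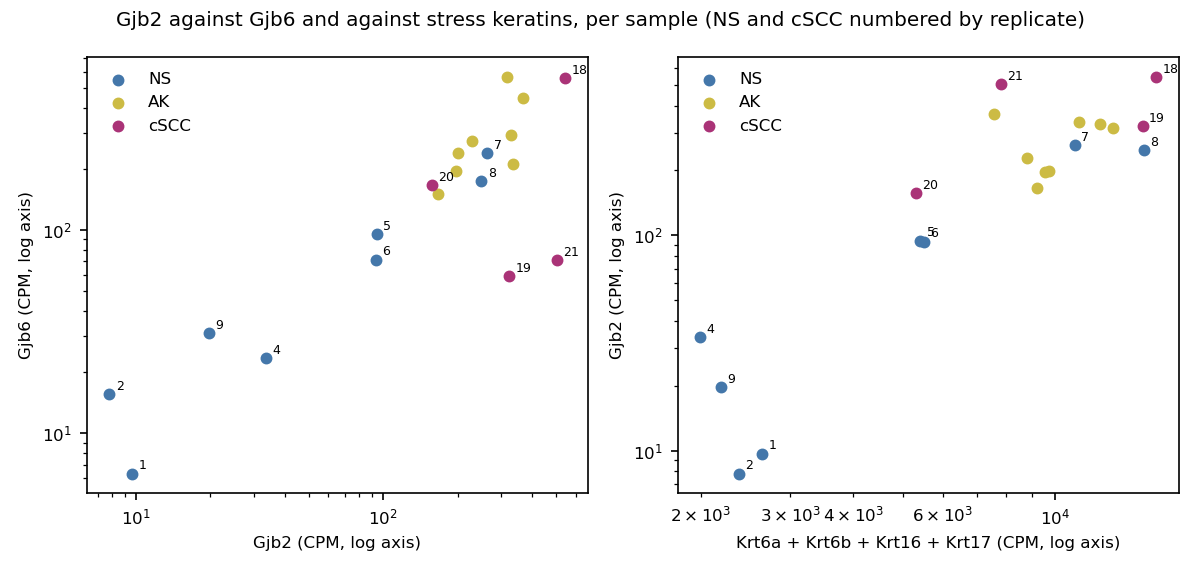
Gjb2 against Gjb6 (left) and Gjb2 against the summed stress keratins (right) in CPM on log axes, each point 1 sample, with NS and cSCC numbered by replicate. In NS and AK, Gjb6 rises with Gjb2 from 7.82 to 367 CPM of Gjb2, while cSCC 19 and 21 have low Gjb6 for their Gjb2.

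Gja1 encodes the most widespread connexin of the body. It ranged from 379 to 1116 CPM in NS (median 854, mean 837 ± 235 SD, n = 8) and from 1092 to 1513 in AK (median 1332, mean 1315 ± 153 SD, n = 8), so that 7 of 8 AK exceeded every NS. The log2 fold change in AK vs. NS was 0.64 (SE 0.18, edgeR adjusted p = 0.0452), a 1.56-fold higher level, but the call was lost without 14 of the 16 samples in turn, all but NS 6 and NS 8 (adjusted p 0.0300 to 0.0911). The cSCC had 2185, 997, 583 and 1277 CPM, both above and below AK, with log2 fold changes of 0.64 (SE 0.37, adjusted p = 0.234) vs. NS and 0.05 (SE 0.31, adjusted p = 0.927) vs. AK. The direction vs. AK turned without cSCC 18 (-0.42), cSCC 21, AK 12 or AK 14, and the interval of -0.57 to 0.66 covers changes either way. The genes most like Gja1 were Hbs1l (r = 0.92), Cblb (0.91) and Pole2 (0.91). The log2 ratio of Gjb2 to Gja1 counts, which needs no scaling between libraries, was -4.05 ± 1.65 (SD) in NS, -2.34 ± 0.41 in AK and -1.71 ± 0.30 in cSCC, and its range in NS (-6.35 to -1.79) reached into those of the other groups.

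Gjb5 encodes a connexin of differentiating keratinocytes. It ranged from 84.3 to 209 CPM in NS (median 110, mean 124 ± 47.0 SD, n = 8) and from 38.4 to 171 in AK (median 65.9, mean 75.0 ± 42.5 SD, n = 8), and 7 of 8 AK were below every NS. The cSCC had 43.1, 8.79, 6.83 and 0.331 CPM, the last from 2 counts, which is under the floor, and all 4 were below every NS, as were 5.73% of the genes tested. Gjb5 fell 8.44-fold in cSCC vs. NS (log2 fold change -3.08, SE 0.78, edgeR adjusted p = 0.0157) and 5.02-fold in cSCC vs. AK (-2.33, SE 0.77, adjusted p = 0.0400), where 3 of 4 cSCC were below every AK. In both comparisons Gjb5 passed the filter only through NS or AK, with 3 of 4 cSCC at its level, so these p-values are descriptions. In AK vs. NS the log2 fold change was -0.74 (SE 0.28, adjusted p = 0.112), which did not pass but did without AK 10 (-1.02, adjusted p = 0.0173). Without cSCC 18, the highest of the cSCC, the log2 fold changes were -4.68 vs. NS (adjusted p = 0.00133) and -3.97 vs. AK (adjusted p = 0.00283). The call vs. NS was kept without cSCC 20 and 21 (-2.27, adjusted p = 0.0251), whereas that vs. AK was lost (-1.52, adjusted p = 0.116) and was also lost without 8 of the 12 samples in turn, all but AK 14, AK 16, cSCC 18 and cSCC 21 (adjusted p 0.00283 to 0.0917). Suprabasal keratinocyte genes, 10 of 10 with counts above 0, summed to 868 to 11439 CPM in cSCC against 12674 to 38123 in NS, and their part in the Gjb5 difference was not tested. The genes most like Gjb5 in NS and AK were Them5 (r = 0.93), Clic3 (0.93) and Hebp2 (0.90).

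Of 21 connexin and pannexin genes examined, 7 were tested in cSCC vs. NS, and 1 was called lower (Gjb5) and 0 higher, where 7.65% of all genes tested were called lower and 11.7% higher. By an unadjusted p under 0.05 (edgeR), for which no share over all genes was taken, 2 were higher. The median log2 fold change was 1.05, against 0.14 over all genes tested, and was the value of Gja4 (SE 1.06, edgeR adjusted p = 0.516). Gja4 had 0, 9, 2 and 56 counts in cSCC 18, 19, 20 and 21, so this median rests on few counts. Of 6 tested in AK vs. NS, 1 was called higher (Gja1) and 0 lower, where 2.26% and 2.38% of all genes were. Of 6 in cSCC vs. AK, 2 were called lower (Gjb5 and Panx3) and 0 higher, where 8.34% of all genes were called lower. Without cSCC 18, 2 of 8 were called higher (Gja4 and Gjc1) and 4 lower (Gjb5, Gjb6, Panx1 and Panx3). In that fit 18.3% of all genes were called higher and 13.1% lower. Without cSCC 19, 1 of 8 was higher (Gjc1) and 1 lower (Panx3), where 15.2% and 7.31% of all genes were. Without cSCC 20, 1 of 7 was higher (Gjb2) and 1 lower (Panx3), where 16.5% and 8.28% were. Without cSCC 20 and 21 together Panx3 alone of 6 was lower, where 6.71% of all genes were higher and 5.90% lower. Gja4, Gjc1 and Panx1 were named after their values were seen. Panx3, a pannexin gene, was at 0 counts in all 4 cSCC and at 0 to 7.51 CPM in AK, so no fold is given, and it passed the filter only through AK, so that it had to differ.

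Per kilobase of exon, the 4 gap junction members had mean levels in NS of 81.6 CPM per kb for Gja1, 72.1 for Gjb5, 40.1 for Gjb2 and 30.6 for Gjb6. In AK the order was Gja1 (128), Gjb2 (111), Gjb6 (111) and Gjb5 (43.6). In cSCC it was Gjb2 (159), Gja1 (123), Gjb6 (79.7) and Gjb5 (8.57). Gjb5 was second of the 4 by mean in NS and last in AK and cSCC, but in each group the sample ranges of neighbours in the order overlapped, and the order is a description with no test.

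**Figure D4:**
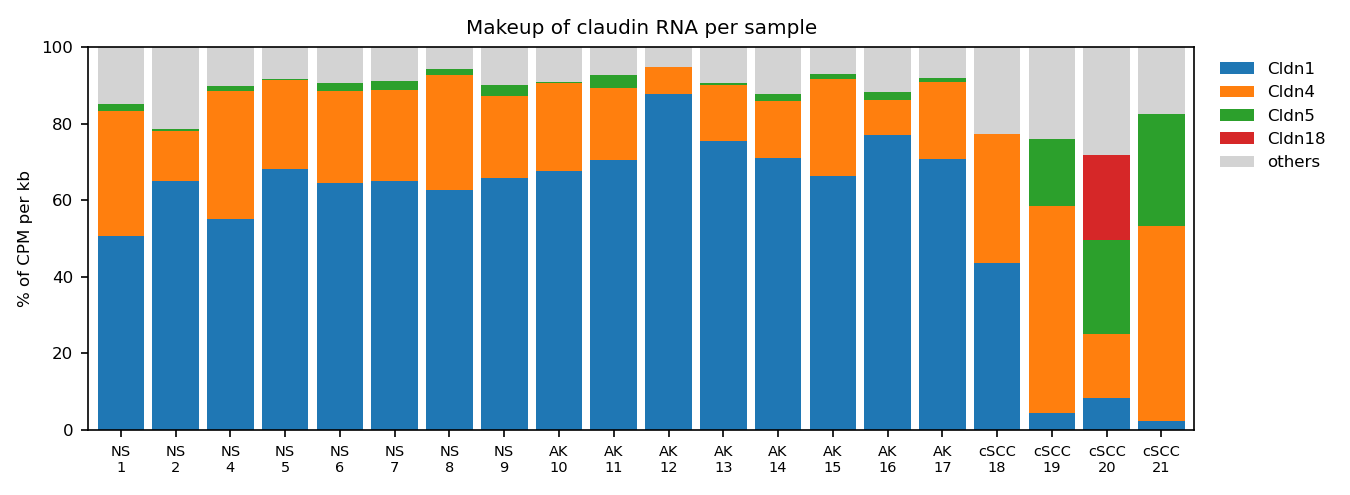
Share of each gene in the summed CPM per kilobase (y axis, percent) of claudin genes in each of the 20 samples, labelled by group and replicate. Cldn1 leads in NS and AK but is at most 43.5% in cSCC. The row Cldn25 is left out.

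Cldn1 encodes the main barrier claudin of the epidermis. It ranged from 331 to 606 CPM in NS (median 409, mean 417 ± 89.3 SD, n = 8) and from 278 to 492 in AK (median 345, mean 364 ± 75.0 SD, n = 8). The cSCC had 83.4, 13.2, 55.8 and 12.4 CPM, and all 4 were below every NS and every AK, as were 5.73% of the genes tested vs. NS and 6.84% vs. AK. Cldn1 fell 9.89-fold in cSCC vs. NS (log2 fold change -3.31, SE 0.52, edgeR adjusted p = 0.00171) and 8.47-fold in cSCC vs. AK (-3.08, SE 0.49, adjusted p = 0.00219). Between AK and NS it differed by -0.21 (SE 0.15, adjusted p = 0.406), with an interval of -0.51 to 0.09. Without cSCC 20 and 21 the log2 fold changes were -3.11 and -2.89 (adjusted p = 0.0072 and 0.00475), and scaling to the 12 keratinocyte genes gave -3.06 and -2.68 (adjusted p = 0.00613 and 0.00367). Leaving out any 1 sample kept both calls, between -3.96 and -3.002 vs. NS and between -3.77 and -2.79 vs. AK, the strongest in both without cSCC 18. The 10 suprabasal keratinocyte genes summed to 868 to 11439 CPM in cSCC, against 12674 to 38123 in NS and 8717 to 28641 in AK. Their part in the Cldn1 difference was not tested. The genes most like Cldn1 in NS and AK were Plekha1 (r = 0.90), Mycbp (0.89) and Megf9 (0.87).

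Cldn4, a claudin of the upper epidermis, was not called in any of the 3 comparisons. It ranged from 29.3 to 104 CPM in NS (median 56.6, mean 65.1 ± 27.0 SD, n = 8) and from 13.2 to 63.0 in AK (median 29.6, mean 32.1 ± 17.1 SD, n = 8), and the cSCC had 24.3, 58.4, 41.0 and 104 CPM. The cSCC overlapped both groups. Its log2 fold change was -1.01 (SE 0.30, edgeR adjusted p = 0.0579) in AK vs. NS, -0.11 (SE 0.40, adjusted p = 0.874) in cSCC vs. NS and 0.99 (SE 0.43, adjusted p = 0.107) in cSCC vs. AK. It passed in AK vs. NS without AK 10 (-1.21, adjusted p = 0.0222). The interval of -0.90 to 0.67 in cSCC vs. NS lies above that of Cldn1 (-4.33 to -2.28), and the sign of this change turned under keratinocyte scaling (0.49) and without cSCC 18, NS 1 or NS 4 (up to 0.13). Within a library, the log2 ratio of Cldn4 to Cldn1 counts was -2.76 ± 0.54 (SD) in NS and -3.65 ± 0.76 in AK, and in cSCC it was -1.76, 2.13, -0.44 and 3.06. Every cSCC was above every NS (highest -2.04) and every AK (highest -2.80). Cldn1 by itself was lower in every cSCC than in every NS and AK, and no share over other gene pairs was taken. The separation of this ratio is thus not a separate result about Cldn4. The genes most like Cldn4 were Irf2bp2 (r = 0.89), Ist1 (0.88) and Nsd1 (0.88).

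Ocln encodes occludin, a membrane protein of the tight junction strand. It ranged from 12.8 to 73.8 CPM in NS (median 40.3, mean 35.8 ± 21.3 SD, n = 8) and from 11.7 to 33.0 in AK (median 18.5, mean 20.998 ± 7.76 SD, n = 8). The cSCC had 3.47, 0.439, 18.2 and 7.61 CPM, the second from 1 count and under the floor, and 3 of 4 were below every NS. Ocln fell 4.93-fold in cSCC vs. NS (log2 fold change -2.30, SE 0.74, edgeR adjusted p = 0.0416), while the change of -1.44 vs. AK (SE 0.62, adjusted p = 0.102) and of -0.82 in AK vs. NS (SE 0.35, adjusted p = 0.152) did not pass. In both cSCC comparisons Ocln passed the filter only through NS or AK, with 2 of 4 cSCC at its level, so these p-values are descriptions. The call vs. NS was lost without 8 of the 12 samples in turn, all but NS 6, NS 7, NS 8 and cSCC 20 (adjusted p 0.0166 to 0.0738), by voom (-3.31, adjusted p = 0.147) and under keratinocyte scaling (-1.70, adjusted p = 0.206), whereas without cSCC 20, the highest of the cSCC, Ocln was lower vs. both NS (-3.06, adjusted p = 0.0166) and AK (-2.17, adjusted p = 0.0234). Without cSCC 20 and 21 it was lower vs. both NS (-4.32, adjusted p = 0.016) and AK (-3.49, adjusted p = 0.00776). Its most similar genes were Sptbn1 (r = 0.89), Hbp1 (0.85) and Gclc (0.84).

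Cldn7, the claudin of many simple epithelia and glands, had 0 counts in most samples and at most 7 counts in any. It had 6 to 7 counts in 3 of 8 NS, 1 to 6 in 3 of 8 AK and 7 in cSCC 21, and no fold change is given. Its level could not be compared at this depth.

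Per kilobase of exon, Cldn1 made up 62.1% ± 6.0 (SD) of the claudin RNA in NS and 73.3% ± 6.9 in AK, but 14.7% ± 19.4 in cSCC, where Cldn4 held 38.8% ± 17.3 and Cldn5, the claudin of endothelial cells, 17.9% ± 12.8. Cldn1 was 43.5% in cSCC 18, where it still led Cldn4 (33.8%), and 5.09% ± 3.11 (n = 3) without it. Without cSCC 20 and 21, the shares of Cldn1, Cldn4 and Cldn5 were 24.01%, 43.8% and 8.82% (n = 2). The shares cover 23 claudin genes, the rows Cldn25, an ambiguous name, and Cldn26 being left out because the annotation used has no gene of these names. The row Cldn25 had means of 156 CPM in NS, 164 in AK and 212 in cSCC, against 65.1, 32.1 and 56.9 for Cldn4. The shares therefore hold only with that row left out. Cldn18, a lung and stomach claudin, had 118 counts in cSCC 20, the library with the lung genes, and at most 1 in any other sample. Of 25 claudin genes, 8 were tested in cSCC vs. NS, the ambiguous Cldn25 among them and not called. Cldn1 and Cldn23 (log2 fold change -3.21, adjusted p = 0.0221) were called lower and Cldn5 higher (3.24, adjusted p = 0.0101), where 7.65% of all genes tested were called lower and 11.7% higher. Cldn23 was at 0 to 1.39 CPM in cSCC, at most 3 counts, and passed the filter only through NS, so that it had to differ. Its call was lost without cSCC 21 (-2.97, adjusted p = 0.0664). In cSCC vs. AK, 6 were tested, with Cldn1 called lower and Cldn5 higher (4.11, adjusted p = 0.00453), where 24.4% of all genes were called, and in AK vs. NS none of 5 was called. Cldn12 was called higher vs. AK as well without cSCC 18, and the row Cldn25 without cSCC 20, both named after their values were seen. Cldn5 had 0, 14.9, 47.8 and 46.3 CPM in the cSCC, and 10 endothelial genes summed to 133 to 894 CPM there against 33.2 to 122 in NS. Without cSCC 20 and 21 the Cldn5 calls were lost vs. NS (1.38, adjusted p = 0.345) and vs. AK (2.22, adjusted p = 0.157), and so was that of Cldn23 (-2.61, adjusted p = 0.141). The part of endothelial RNA in the Cldn5 difference was not tested.

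Of 30 tight junction partner genes listed (scaffolds, polarity and junctional adhesion proteins), 28 were in the count table and 25 were tested in cSCC vs. NS, with 5 called lower and 3 higher, where 7.65% of all genes tested were called lower and 11.7% higher. Called lower were Ocln, Cgn (log2 fold change -3.26, adjusted p = 0.00417), which encodes cingulin, Marveld2 (-2.77, adjusted p = 0.008), which encodes tricellulin, the coxsackievirus receptor gene Cxadr (-1.79, adjusted p = 0.0164) and the polarity gene Pard3 (-1.28, adjusted p = 0.0175). Marveld2, Cgn and Ocln passed the filter only through NS, with 0, 1 and 2 of the 4 cSCC at its level. The count called lower is therefore a description and not to be read against the share over all genes. Called higher were Jam2 (3.34, adjusted p = 0.012), a junctional adhesion gene of endothelium, the scaffold gene Magi3 (3.04, adjusted p = 0.0123) and F11r (1.09, adjusted p = 0.0208), another junctional adhesion gene. The median log2 fold change of the list was -0.16, against 0.14 over all genes tested. In AK vs. NS, 24 were tested and Cgn was called lower (-1.79, adjusted p = 0.019), with 0 called higher, where 2.38% and 2.26% of all genes were. In cSCC vs. AK, 4 were called higher (F11r 1.07, Magi3 2.45, Jam3 2.14 and Jam2 4.15) and 3 lower (Prkci -1.32, Pard3 -0.84 and Cxadr -1.91), where 24.4% of all genes were called. Jam2 had 1.39, 178, 34.1 and 213 CPM in the cSCC, against 0.90 to 22.3 in NS.

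Several of these calls turned on single libraries. Without cSCC 20 and 21, Magi3 (1.11, adjusted p = 0.442), Pard3 (-0.87, adjusted p = 0.138) and Cxadr (-1.24, adjusted p = 0.108) were no longer called vs. NS. Jam2 (3.06, adjusted p = 0.0418), F11r (1.39, adjusted p = 0.0197), Cgn (-3.59, adjusted p = 0.0213) and Marveld2 (-3.64, adjusted p = 0.0184) still were. Without cSCC 19, F11r lost its call vs. NS (0.66, adjusted p = 0.111). In cSCC vs. AK, Magi3 (0.52, adjusted p = 0.736), Jam3 (0.51, adjusted p = 0.731), Prkci (-0.86, adjusted p = 0.138) and Pard3 (-0.44, adjusted p = 0.243) lost theirs without cSCC 20 and 21. Magi3 and Pard3 also lost theirs without either library alone, Jam3 without cSCC 21 (0.998, adjusted p = 0.37) and Prkci without cSCC 19 (-1.26, adjusted p = 0.0529).

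**Figure D5:**
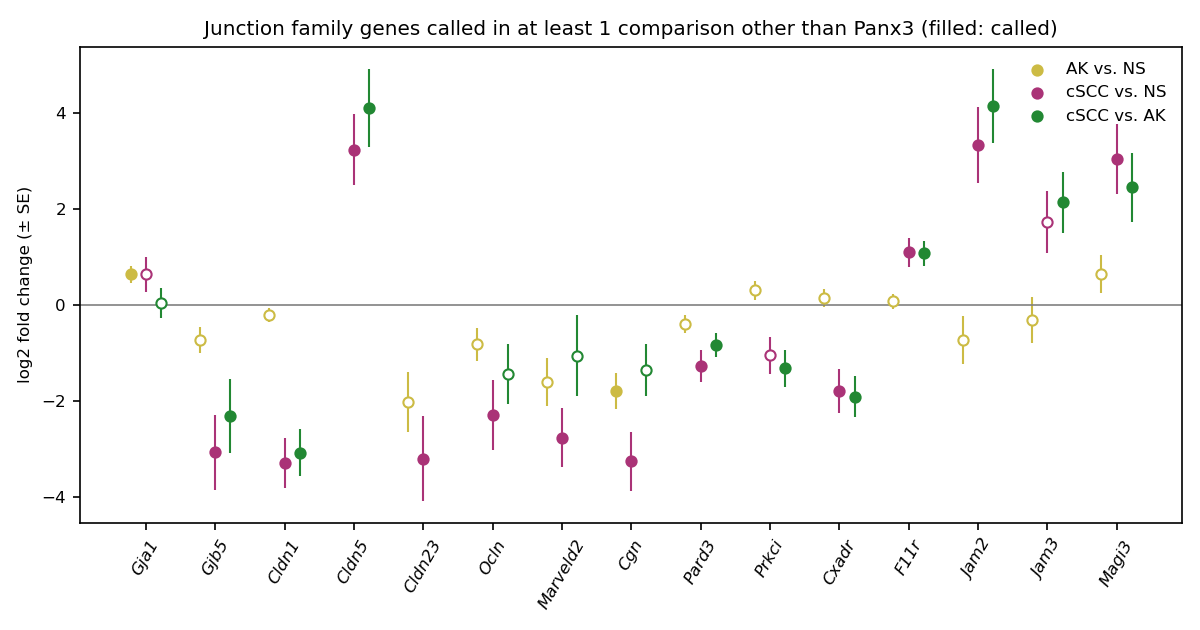
Log2 fold change (y axis, bars ± 1 standard error) of connexin, claudin and tight junction partner genes called in at least 1 of the 3 comparisons, Panx3 left out, with filled points for the calls. In cSCC, Gjb5, Cldn1, Cldn23, Cgn and Marveld2 lie below 0, and Cldn5, Jam2, Jam3, Magi3 and F11r above it.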

How the data were processed

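RNA-seq counts per gene symbol for 20 skin samples were deposited by the authors, without normalization. The submitters' processing notes name Trimmomatic 0.36, HISAT2 2.0.5 and featureCounts 1.5.2 and the builds mm9 and hg19, whereas the paper names StringTie and the mouse build GRCm38, so how the counts were made is unclear. Strand and overlap settings are not given in the sources used here. None of the members overlaps another annotated gene. Groups came from the sample titles, and 0 per-sample columns went unused. No pair of libraries in a group (62 pairs) agreed within sampling noise, since their counts gave a chi-square of at least 11.3 per degree of freedom.

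TMM factors, filterByExpr and the quasi-likelihood test of edgeR 4.0.16 (R 4.3.3) were used on the samples of each pair of groups, with Benjamini-Hochberg adjustment over all genes tested. The standard error is the log2 fold change divided by the square root of F, and intervals are ± 1.96 standard errors. Tested on simulated data with log2 fold changes of 2, the fit recovered 91.2% of 194 changed genes in AK vs. NS, 48.4% of 192 in cSCC vs. NS and 55% of 200 in cSCC vs. AK, with 9, 3 and 5 false calls. Correlations used 100000 permutations within groups, and ratios added 0.5 to each count. Likeness was Pearson r over 16 NS and AK samples among genes with a mean of at least 10 CPM, the 3 highest being named per member, Cldn7 excepted for its sparse counts. Otherwise all 8 members and every called gene of the connexin, claudin and tight junction partner lists were named, and Cldn18 was named after its values were seen. Exon lengths and distances are from GENCODE M21 on GRCm38, which may not be the authors' annotation. Some genes of the lists are withheld and are not reported here. The row named Cldn25 is ambiguous, was tested as 1 of the claudins and was left out of the claudin shares. Members and lists were chosen with earlier results of these data known.

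Alternatives were DESeq2 1.42.0, limma 3.58.1 voom with sample weights, library size or keratinocyte scaling, other filters, the study's unadjusted rule, all 20 samples in 1 fit, leaving out samples and, added after seeing the data, removing haemoglobin genes and leaving out each sample in the ratios and the cSCC libraries in the listed genes and claudin shares. Python 3.11.15 was used for the rest.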

Additional observations from a re-analysis of the deposited data

Results flagged for a closer look

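In 4 of 24 gene and group sets (8 genes in 3 groups), 1 sample stood apart from the others of its group by Dixon's criterion. Chance alone meets it in about 1 of 20 sets if values are normally distributed. That was not checked for these CPM values and does not hold for the sparse Cldn7, so no excess can be read from the number flagged. Gjb5 in AK replicate 10 was 171 CPM, with the next AK at 83.7, and Cldn1 in NS replicate 5 was 606 CPM, with the next NS at 448. Cldn7 was 0.958 CPM in AK replicate 15 (6 counts), with the next AK at 0.299, and 1.16 CPM in cSCC replicate 21 (7 counts), with the other cSCC at 0. With the others at 0, any count above 0 would have been flagged.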

How the results depend on the processing

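No paired analysis was possible because each sample number occurs once and no label ties a sample to a mouse. In AK vs. NS, 1 member was called, against 2 by library size alone, with at least 10 counts in every sample or with keratinocyte scaling, 3 by DESeq2, 5 by voom or the study's unadjusted rule, and 0 without a filter or with all 20 samples in 1 fit; of all genes, 542 were called, against 1049 by DESeq2, 1043 by voom, 1841 by the study's rule and 9 with all 20 samples. In cSCC vs. NS, 3 members and 2340 genes were called, against 1 and 1526 with at least 10 counts, 1308 genes by voom and 1558 without cSCC 20 and 21. In cSCC vs. AK, 2 members and 2935 genes were called, against 1 and 1731 with at least 10 counts, 1270 genes by voom and 1584 without cSCC 20 and 21. Leaving out 1 sample gave 0 to 3 members and 164 to 920 genes in AK vs. NS, 2 to 4 and 1695 to 3181 in cSCC vs. NS, and 1 to 3 and 1787 to 3994 in cSCC vs. AK. The cause was not tested, apart from fewer genes or samples entering the fit.

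The log2 fold change of Gja1 in cSCC vs. AK turned negative by library size alone (-0.37), voom (-0.34), the study's rule (-0.092), no filter (-0.13) and all 20 samples in 1 fit (-0.081), and leaving out 1 sample gave -0.42 to 0.28, including -0.05, -0.07 and -0.06 without AK 12, AK 14 and cSCC 21. That of Cldn4 in cSCC vs. NS was 0.49 with keratinocyte scaling and -0.60 to 0.13 leaving out 1 sample, including 0.02 and 0.01 without NS 1 and NS 4. That of Gjb6 in cSCC vs. AK was 0.095 without cSCC 20 and 21. Cldn1 kept its calls in all 12 alternatives in both cSCC comparisons, and Gjb5 vs. NS in all 11. In AK vs. NS, the Gja1 call was lost in 6 of 11 alternatives, while Gjb6 passed in 6 and Cldn4 in 7.

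The median over all genes tested moved with the scaling, in cSCC vs. NS from 0.14 (TMM) to -0.17 (library size alone) and 0.50 (keratinocyte scaling), in cSCC vs. AK from 0.17 to -0.09 and 0.64, and in AK vs. NS from -0.04 to -0.13 and -0.21. The share of calls that were higher was 60.4%, 31.9% and 77.6% in cSCC vs. NS, 65.8%, 43.0% and 87.6% in cSCC vs. AK, and 48.7%, 26.8% and 23.1% in AK vs. NS. With keratinocyte scaling Gjb2 was called higher in cSCC vs. NS (2.69, edgeR adjusted p = 0.0212) and Cldn4 in cSCC vs. AK (1.71, adjusted p = 0.0226). Removing haemoglobin genes changed no member's call. The 4 cSCC, and counts under the floor in some of them, limit Gjb5, Ocln and Cldn7.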
